A study of Mus musculus with 15 samples.

Results

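Scavenger receptors and surface markers of macrophages were followed through the conversion of pre-B cells into macrophage-like cells, in 8 genes chosen by name: the scavenger receptors Msr1, Marco, Cd36 and Cd163, the lysosomal marker Cd68, the lectin receptors Mrc1 and Clec7a, and the adhesion receptor gene Emr1. They are 8 of 22342 protein-coding genes on chromosomes 1 to 19 and X of mouse genome build mm9. The rule names genes and uses no measured value, but the genes were listed with earlier results of these data known. For each gene, ChIP-seq tags were counted in the 3 kb centred on its start and in consecutive 3 kb windows over the gene and 30 kb on each side, which gave 319 windows.

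The cells were C10 cells, a line derived from the mouse pre-B line HAFTL that carries a C/EBPα-estrogen receptor fusion linked to GFP. They were cultured with IL-3 and CSF-1 and received β-estradiol, which moves the fusion protein into the nucleus, while the uninduced cells received the ethanol solvent. At 0, 3, 12, 24 and 48 hours post-induction (hpi), chromatin was precipitated with antibodies to H3K4Me1, H3K27Ac or H3K27Me3 and sequenced, 1 library for each mark and time, so 15 libraries in all and no replicates. The labels give this 1 line for all libraries, and an estradiol-treated line without it was not analysed here.

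Scavenger receptors take up modified lipoproteins, microbes, apoptotic cells and haemoglobin, and lectin receptors such as Mrc1 and Clec7a bind sugars on glycoproteins or on the walls of fungi. Most are found on tissue macrophages, and their set differs with the tissue and the state of the macrophage. H3K4Me1 marks enhancers that are poised or active, H3K27Ac marks active promoters and enhancers, and H3K27Me3 is laid down by the Polycomb machinery at silent genes.

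Values are tags in a 3 kb window after the libraries of a mark had been thinned to equal size. For H3K4Me1 the genome mean was 13.4 tags and a window was called enriched from 27 tags, for H3K27Ac these were 18.7 and 34, and for H3K27Me3 18.8 and 35, where the Poisson upper tail over that mean fell below 0.001. A change was called when it reached 2-fold with at least 10 tags in the higher library, and its exact 95% interval covers counting error only. As no time was repeated, the error between replicates is unknown and no test was run. The DNA of the stretches on which the results turn is shown first.

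The promoters of Msr1, Clec7a and Cd68 are shown because their start windows gained H3K27Ac, and that of Marco because its start did not. Each is the 250 bases before the annotated start, 5′ to 3′ on the gene's strand, read from the mm9 genome (NCBIM37). Capitals mark matches on either strand to a C/EBP motif (TTGCNNAA), a PU.1 motif (GAGGAAG) or an AP-1 motif (TGANTCA), which do not overlap here. Of 22337 promoters of this length, 9.05% held the C/EBP letters, 10.5% the PU.1 letters and 5.87% the AP-1 letters.
Msr1 promoter (chr8:40728033-40728282, minus strand): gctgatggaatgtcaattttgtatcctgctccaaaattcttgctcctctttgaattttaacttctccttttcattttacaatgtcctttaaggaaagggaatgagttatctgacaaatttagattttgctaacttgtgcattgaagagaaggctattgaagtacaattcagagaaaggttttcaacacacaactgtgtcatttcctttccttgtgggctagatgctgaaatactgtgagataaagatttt
Clec7a promoter (chr6:129422791-129423040, minus strand): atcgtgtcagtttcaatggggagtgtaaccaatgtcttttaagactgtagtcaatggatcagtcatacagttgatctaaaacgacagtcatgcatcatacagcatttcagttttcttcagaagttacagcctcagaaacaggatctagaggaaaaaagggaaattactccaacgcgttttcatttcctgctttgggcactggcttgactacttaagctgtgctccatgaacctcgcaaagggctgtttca
Cd68 promoter (chr11:69479656-69479905, minus strand): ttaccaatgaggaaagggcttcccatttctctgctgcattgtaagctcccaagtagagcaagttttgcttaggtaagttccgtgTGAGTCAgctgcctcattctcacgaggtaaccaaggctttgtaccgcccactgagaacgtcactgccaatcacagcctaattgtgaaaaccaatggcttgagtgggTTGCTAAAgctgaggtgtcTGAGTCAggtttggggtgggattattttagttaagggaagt
Marco promoter (chr1:122401662-122401911, minus strand): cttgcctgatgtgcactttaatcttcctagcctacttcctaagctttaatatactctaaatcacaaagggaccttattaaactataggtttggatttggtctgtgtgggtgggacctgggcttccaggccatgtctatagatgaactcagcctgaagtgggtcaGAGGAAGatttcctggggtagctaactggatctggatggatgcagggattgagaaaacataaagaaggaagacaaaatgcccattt
The Cd68 promoter held 1 C/EBP and 2 AP-1 matches, the Marco promoter 1 PU.1 match, and the promoters of Msr1 and Clec7a none of the 3. The Mrc1 promoter, not printed, held 2 PU.1 matches and that of Cd36 none. Those of Emr1, with 1 C/EBP and 2 PU.1 matches, and Cd163, with none, overlap an annotated exon and are not printed either. A match is a run of letters and not a measured binding site, and the absence of one says only that these letters are not in this window.

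The distal stretches are the 300 bases with the most H3K27Ac tags inside windows that gained or lost acetylation (at 48 hpi for gains, at 0 hpi for losses). Those of Msr1, Cd36 and Emr1 lay in the window with the most tags at 48 hpi among the windows called higher in the locus, and that of Mrc1 in the window with the largest fall. Of 85193 segments of this length spaced over the genome, 13.8% held the C/EBP letters, 8.93% the PU.1 letters and 8.80% the AP-1 letters.
Msr1 -9 kb (chr8:40735852-40736151, minus strand): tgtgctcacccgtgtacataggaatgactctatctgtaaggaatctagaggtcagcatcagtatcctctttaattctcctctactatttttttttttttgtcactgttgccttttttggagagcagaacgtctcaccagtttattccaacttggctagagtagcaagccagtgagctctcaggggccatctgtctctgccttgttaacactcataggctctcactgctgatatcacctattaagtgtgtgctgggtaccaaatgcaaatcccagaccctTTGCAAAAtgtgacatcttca
Cd36 +12 kb (chr5:17344810-17345109, minus strand): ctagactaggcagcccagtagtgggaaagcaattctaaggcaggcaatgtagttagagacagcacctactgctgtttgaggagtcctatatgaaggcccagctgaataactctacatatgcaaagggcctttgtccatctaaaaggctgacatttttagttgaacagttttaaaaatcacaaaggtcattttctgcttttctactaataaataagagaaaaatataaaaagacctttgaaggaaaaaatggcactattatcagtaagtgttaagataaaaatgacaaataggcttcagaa
Emr1 -12 kb (chr17:57486712-57487011, plus strand): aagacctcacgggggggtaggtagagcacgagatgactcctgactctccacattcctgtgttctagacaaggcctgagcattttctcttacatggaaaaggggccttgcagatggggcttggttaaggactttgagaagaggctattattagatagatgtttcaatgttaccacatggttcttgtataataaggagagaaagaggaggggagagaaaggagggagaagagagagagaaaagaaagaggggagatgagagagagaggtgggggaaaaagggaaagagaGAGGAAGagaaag
Mrc1 +12 kb (chr2:14163961-14164260, plus strand): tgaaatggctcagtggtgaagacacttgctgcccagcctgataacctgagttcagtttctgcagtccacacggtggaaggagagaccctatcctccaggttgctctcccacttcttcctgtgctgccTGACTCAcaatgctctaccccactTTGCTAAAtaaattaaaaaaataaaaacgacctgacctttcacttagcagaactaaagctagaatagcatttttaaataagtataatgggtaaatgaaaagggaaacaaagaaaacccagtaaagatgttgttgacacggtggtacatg
Within these 300 bases, H3K27Ac went from 0 tags at 0 hpi to 126 at 48 hpi for Msr1, from 30 to 169 for Cd36 and from 12 to 78 for Emr1. In the Mrc1 stretch it went from 130 to 9. The Msr1 stretch held 1 C/EBP match, the Emr1 stretch 1 PU.1 match at its downstream end, the Mrc1 stretch 1 AP-1 and 1 C/EBP match, and the Cd36 stretch none.

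The libraries held 11.04 to 17.85 M tags for H3K4Me1, 15.93 to 18.56 M for H3K27Ac and 15.36 to 31.56 M for H3K27Me3. The 0 and 3 hpi libraries of H3K27Ac stood apart at the immunoglobulin heavy chain locus: they held 573 and 478 tags in the 100 kb around Adam6b, against 27 tags in the other 13 libraries together. Whether they came from the same cells as the other 13 was not tested. The 8 starts, the counts of windows and some single windows are therefore also given for H3K27Ac from 12 to 48 hpi, and other H3K27Ac changes rest on the 0 hpi library. The labelled cell type was checked on B cell genes: 9 of 9 starts were enriched in H3K27Ac at 0 hpi, and at 48 hpi 9 of 9 were at least 2-fold lower (median log2 change of -1.71). The myeloid genes Csf1r, Itgam, Cd14, Lyz2 and Fcgr1 were at least 2-fold higher in H3K27Ac in 5 of 5 cases, and in 2 of 5 counted from 12 hpi, when 5 of the 9 B cell genes were lower. From 0 hpi, 0 of 7 markers of T cells, liver, muscle, neurons and red cells were called, and of 5 genes used in every cell 1 (Rpl13a) was lower. The median of all starts with at least 10 tags was -0.21 for H3K27Ac, -0.34 for H3K4Me1 and 0.03 for H3K27Me3 on the log2 scale.

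At their starts, 5 of the 8 genes were at least 2-fold higher in H3K27Ac at 48 than at 0 hpi, Msr1, Cd36, Cd68, Emr1 and Clec7a, against 6.6% of all gene starts, and none was lower, against 9.67%. In H3K4Me1, 4 of 8 were higher, Msr1, Cd36, Emr1 and Clec7a, against 4.17% of all starts. Marco and Cd163 stayed under 10 tags in both active marks at all 5 times. From 12 to 48 hpi, 3 of 8 starts, those of Msr1, Cd36 and Clec7a, were at least 2-fold higher in H3K27Ac, against 3.35% of all starts. Against 0 hpi, 2 starts were higher in H3K27Ac at 3 hpi (Cd36 and Clec7a), 5 at 12 hpi and 6 at 24 hpi, when Mrc1 joined them, beside 5.19%, 5.24% and 5.44% of all starts. The 8 genes are not replicates of one another. The libraries are from bulk cells, so a mark on more cells and more of the mark per cell cannot be told apart.

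**Figure D1:**
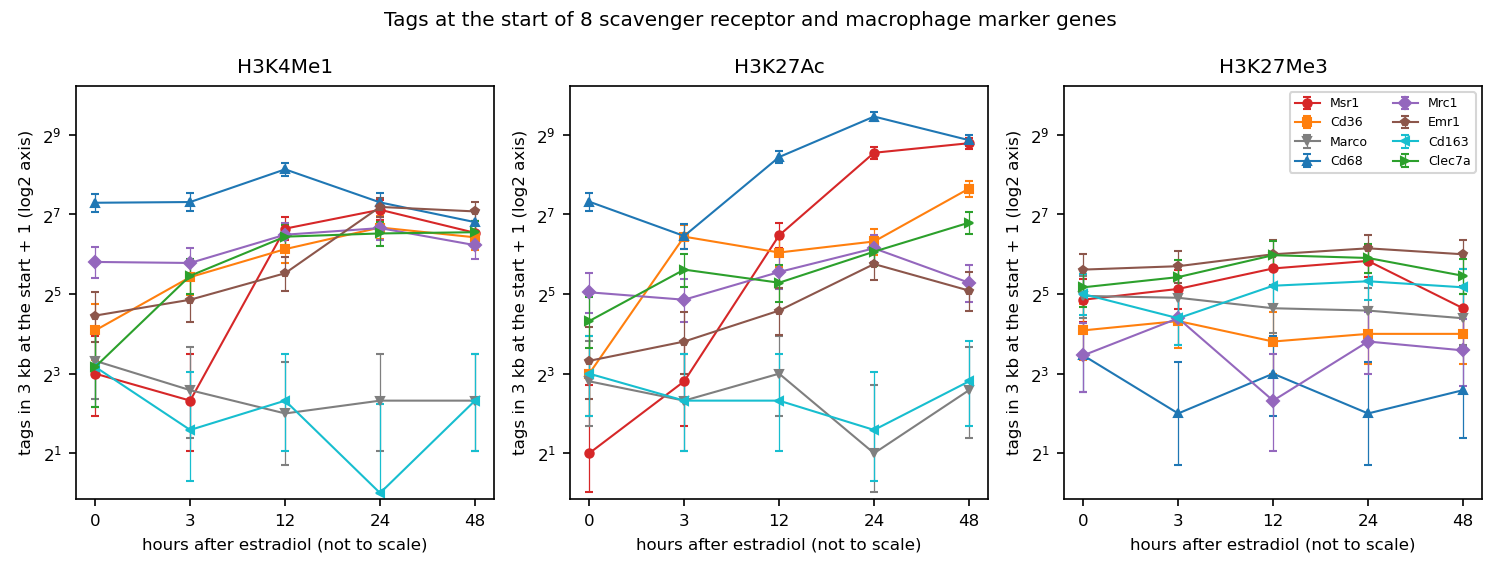
Tags in the 3 kb at the start of each gene (1 added, log2 axis) against hours after estradiol, 1 panel per mark and 1 line per gene. Points are single libraries and bars are exact 95% Poisson intervals for counting. Msr1 H3K27Ac climbs from 1 to 442 tags and Cd36 from 7 to 200, while Marco and Cd163 stay at the bottom of both active marks.

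Before induction, 1 of 8 starts was enriched in H3K27Ac (Cd68) and 2 in H3K4Me1 (Cd68 and Mrc1), where 46.4% and 44.9% of all gene starts were. At 48 hpi 5 starts were enriched in H3K27Ac and 6 in H3K4Me1, beside 47.3% and 40.7% of all starts. In H3K27Me3, 2 starts were enriched at 0 hpi and 3 at 48 hpi, beside 15.1% and 17.6% of all starts.

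**Figure D2:**
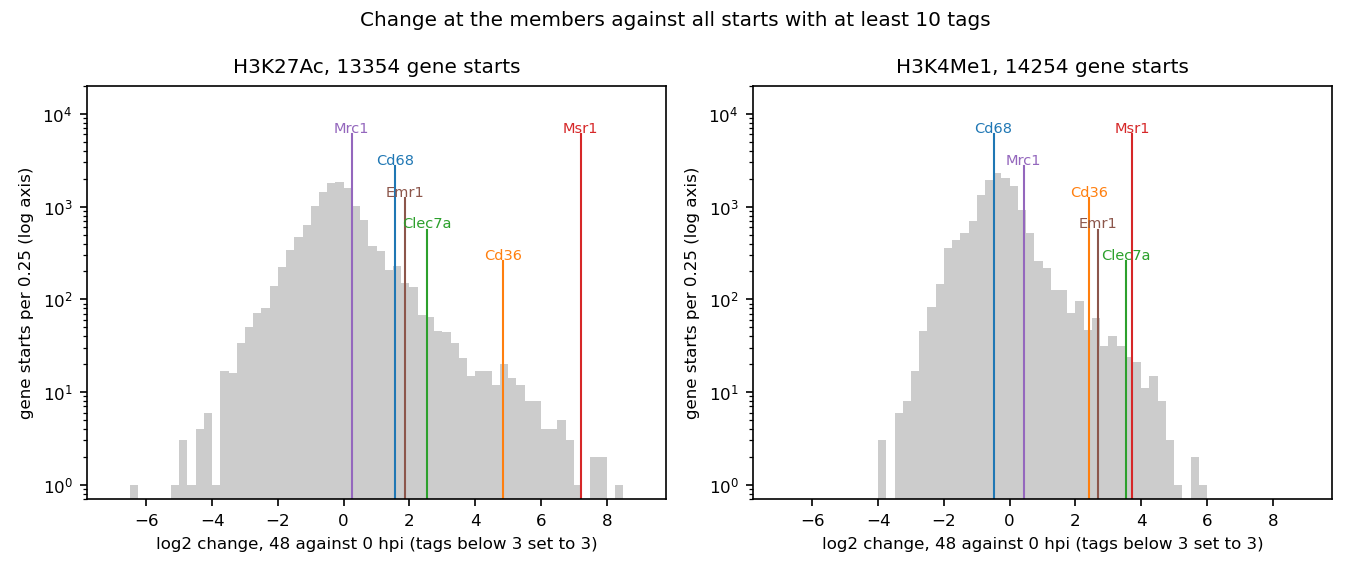
Number of gene starts (log axis) by log2 change from 0 to 48 hpi, for the 13354 starts with at least 10 H3K27Ac tags and the 14254 with at least 10 H3K4Me1 tags. Counts below 3 were set to 3, so Msr1 stands lower here than its fitted ratio. Vertical lines mark the genes with 10 tags, and Msr1 and Cd36 lie in the right tail of both marks.

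Msr1 encodes a class A scavenger receptor that takes up modified low-density lipoprotein and binds bacteria. Its main start, shared by 2 of 3 transcripts, lies on chromosome 8 at position 40728032 on the minus strand. In the order of the 5 times, H3K27Ac there was 1, 6, 88, 374 and 442 tags. The log2 change was 8.79, with an interval of 6.30 to 14.1 that is wide because it starts from 1 tag, and 99.96% of all ranked starts had a lower value. H3K4Me1 was 7, 4, 99, 138 and 92 tags. Both active marks thus stayed below the genome mean at 3 hpi and were enriched from 12 hpi. Of the rise in H3K27Ac tags from 0 to 48 hpi, 1.13% was present at 3 hpi, 19.7% at 12 hpi and 84.6% at 24 hpi. Counted from 12 hpi, the log2 change to 48 hpi was 2.33 (2.00 to 2.68). The start of the third Msr1 transcript, downstream in the gene, reached 17 tags of H3K27Ac at 48 hpi and was not enriched at any time.

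The gain at Msr1 formed a block upstream of the start. In the window 9 kb upstream H3K27Ac went from 1 to 11, 100, 376 and 504 tags, a log2 change of 8.98 (6.49 to 14.3) that was 2.33 (2.02 to 2.66) from 12 hpi, and H3K4Me1 from 6 to 158 tags. The windows 6 and 3 kb upstream reached 199 and 222 tags at 48 hpi from 4 and 2. A second, intragenic place 24 kb downstream of the start had 24 tags at 0 hpi, with H3K4Me1 already enriched there at 37 tags, and reached 199 tags at 24 hpi and 142 at 48 hpi. In all, 6 of 41 windows of the locus were enriched in H3K27Ac at 48 hpi and none at 0 hpi, where 9.26% and 6.31% of genome windows were. All 6 were enriched in H3K4Me1 at 48 hpi and 1 of them at 0 hpi. At least 2-fold higher in H3K27Ac were 20 of the 41. Over the 8 loci, 76 of 319 windows (23.8%) were higher, against 9.28% of genome windows, and 77 were higher in H3K4Me1, against 6.49%. Most of the 20 in Msr1, and some of the 76 in Cd36 and other loci, held fewer H3K27Ac tags at 48 hpi than the genome mean of 18.7. Enriched in H3K27Ac were 34 of the 319 at 0 hpi and 59 at 48 hpi. With 12 hpi as the base, 44 windows were higher in H3K27Ac and 21 lower, against 5.5% and 3.57% of genome windows.

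H3K27Me3 rose over the same locus, outside the windows enriched in H3K27Ac at 48 hpi. Summed over the 121 kb of the Msr1 locus it was 829, 863, 1138, 1519 and 1677 tags at 0, 3, 12, 24 and 48 hpi, a log2 change of 1.02 (0.90 to 1.14). Only 0.139% of all gene loci were at least 2-fold higher in H3K27Me3, and the median locus changed by 0.03. At least 2-fold higher were 24 of 41 windows, against 3.37% of genome windows, and the enriched windows went from 2 to 25. In the 6 windows enriched in H3K27Ac at 48 hpi, H3K27Me3 was 127 tags at 0 hpi and 123 at 48 hpi, and 0 of them were higher. In the other 35 windows it went from 720 to 1609 tags, and 24 of them were higher. Many of these 24 were also called higher in H3K4Me1, and many in H3K27Ac without being enriched in it. Of the 41 windows 22 were called higher in H3K4Me1. In the window 30 kb upstream H3K4Me1 went from 3 to 16 tags, H3K27Ac from 5 to 11 and H3K27Me3 from 34 to 91. At the start itself H3K27Me3 was 28, 34, 49, 56 and 24 tags, so it was highest at 24 hpi and fell by 1.22 on the log2 scale (-1.98 to -0.51) between 24 and 48 hpi. Scaled on bins enriched at all 5 times, the locus changed by 0.86 and 15 windows were higher, so the 2-fold call on the locus rests on the scaling.

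**Figure D3:**
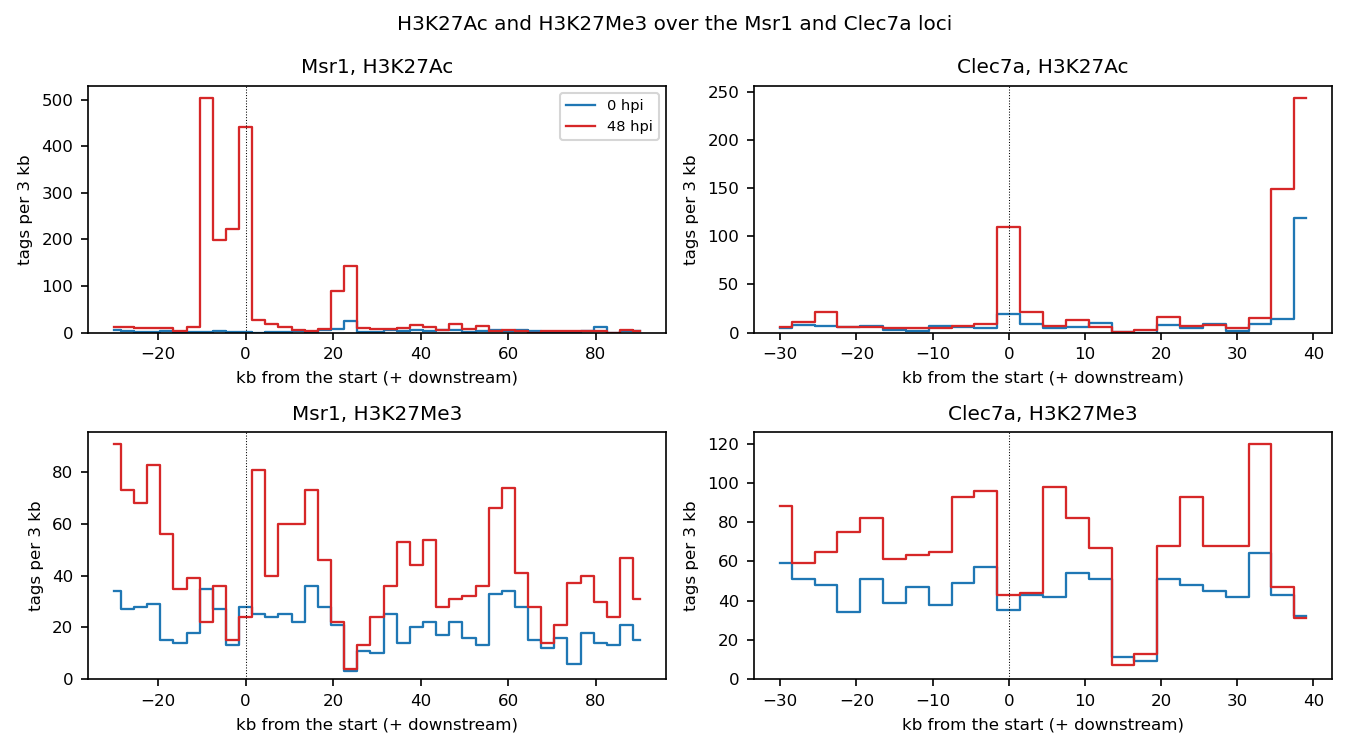
H3K27Ac (top) and H3K27Me3 (bottom) in tags per 3 kb window against distance from the start of Msr1 (left) and Clec7a (right), at 0 and 48 hpi, on linear axes. In the Msr1 locus the H3K27Me3 profile of 48 hpi lies above that of 0 hpi on both sides of the block that gained H3K27Ac, and meets it inside the block.

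Marco encodes another class A scavenger receptor, found on macrophages of the marginal zone and the lung. Its start lies on chromosome 1 at position 122401661 on the minus strand, and its H3K27Ac was 6, 4, 7, 1 and 5 tags at the 5 times. H3K4Me1 was 9, 5, 3, 4 and 4 tags, and H3K27Me3 30, 29, 24, 23 and 20 tags. None of the 31 windows of the locus was enriched in H3K27Ac or H3K4Me1 at any time. Over the locus H3K27Ac went from 160 to 104 tags (log2 change of -0.62, -0.99 to -0.26) and H3K4Me1 from 190 to 93 (-1.03, -1.40 to -0.67), where 12.3% of all loci were at least 2-fold lower, both at levels below the genome mean. The H3K4Me1 change was -0.13 (-0.50 to 0.24) when scaled on background bins and -0.97 on bins enriched at all 5 times, neither of which reached 2-fold. H3K27Me3 over the locus was 714 tags at 0 hpi and 548 at 48 hpi, with a log2 change of -0.38 (-0.55 to -0.22), and 4.80% of all loci fell further. The class A receptor genes Msr1 and Marco thus began at 1 and 6 tags of H3K27Ac, both below the genome mean, and ended at 442 and 5.

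Cd36 encodes a class B scavenger receptor that takes up long-chain fatty acids and oxidized lipoprotein. The start with most transcripts (2 of 4) lies on chromosome 5 at position 17355610 on the minus strand. H3K27Ac there was 7, 86, 65, 79 and 200 tags, so 12.3-fold higher already at 3 hpi, level until 24 hpi, and higher again at 48 hpi. The log2 change over 48 h was 4.84 (3.77 to 6.17), and from 12 to 48 hpi it was 1.62 (1.21 to 2.05). H3K4Me1 was 16, 42, 69, 101 and 85 tags, and H3K27Me3 stayed between 13 and 19 tags. The start 13.9 kb downstream was enriched in H3K27Ac at all 5 times, with 41, 84, 96, 198 and 326 tags. The farthest upstream start changed least, with 18, 21, 20, 21 and 29 tags, and taken as the start of the gene it would give a log2 change of 0.69 in H3K27Ac and 0.58 in H3K4Me1, neither called.

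Of the 8 loci, that of Cd36 had the most windows with a gain. Over its 167.3 kb H3K27Ac was 534, 1454, 2239, 3750 and 5590 tags, a log2 change of 3.39 (3.26 to 3.52). Of all gene loci 8.0% were at least 2-fold higher, and Cd36, Msr1 and Clec7a were the 3 of the 8 that were. Emr1 joined them when scaled on bins enriched at all 5 times. The Clec7a locus went from 273 to 684 tags of H3K27Ac. Its windows 36 and 39 kb downstream, inside the neighbouring gene Clec1a, went from 14 to 149 and from 119 to 244. In the Cd36 locus 31 of 56 windows were at least 2-fold higher and none lower. Of the 31, 24 lay in the gene, 3 upstream of it, 3 downstream and 1 at the main start. The window with the most tags at 48 hpi, 12 kb downstream of the main start, went from 57 to 160, 168, 349 and 682 tags. The neighbouring window, 9 kb downstream, went from 86 to 279, 292, 502 and 664. In the window 6 kb upstream, picked after its values were seen, H3K27Ac was 27, 69, 319, 622 and 640 tags, and in the one 30 kb upstream 10, 42, 160, 342 and 425. Both downstream windows gained between 0 and 3 hpi, changed little between 3 and 12 hpi and made most of their gain after 12 hpi. Both upstream windows gained most between 3 and 24 hpi, but the one 9 kb upstream, also picked after its values were seen, had 8, 16, 149, 293 and 570 tags and gained about as much after 24 hpi as before. These windows lie upstream of the main start but inside the gene, whose farthest upstream start is in the window 39 kb before the main start. Between 12 and 48 hpi, 24 of 56 windows were higher and none lower. At 0 hpi, 4 windows were enriched in H3K27Ac and 6 in H3K4Me1, where 10.3% of genome windows were enriched in H3K4Me1. At 48 hpi these counts were 19 and 23, the latter beside 12.2%.

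**Figure D4:**
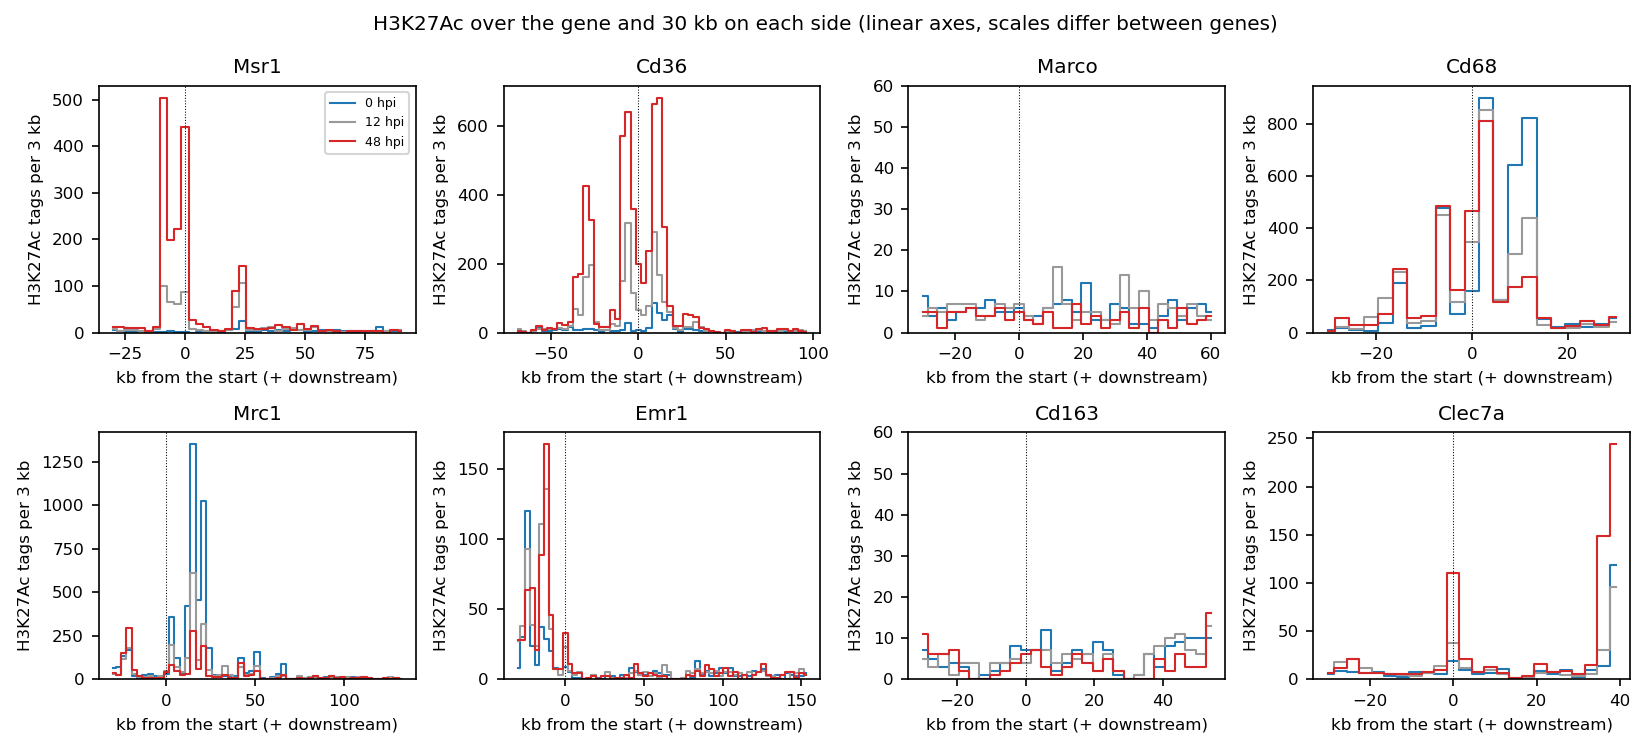
H3K27Ac tags per 3 kb window over each gene and 30 kb on each side, by distance from the main start, at 0, 12 and 48 hpi. Axes are linear and their scales differ between genes. Msr1, Cd36 and Emr1 show peaks at 48 hpi where 0 hpi is lower, but 24 kb upstream of Emr1 the count goes from 120 to 64. Mrc1 shows higher peaks at 0 hpi inside the gene, and Marco and Cd163 hold no peak.

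Cd68 encodes a lysosomal glycoprotein of macrophages that is also classed as a scavenger receptor. Its start lies on chromosome 11 at position 69479655 on the minus strand, and it was the one start of the 8 enriched in H3K27Ac in pre-B cells. H3K27Ac was 159, 87, 347, 704 and 466 tags: lower at 3 hpi, highest at 24 hpi, and lower by 0.60 on the log2 scale (-0.77 to -0.42) at 48 than at 24 hpi. From 0 to 48 hpi the log2 change was 1.55 (1.29 to 1.82), and from 12 hpi on it was 0.43 (0.22 to 0.63). H3K4Me1 was 156, 158, 280, 157 and 111 tags. H3K27Me3 held 10 tags at 0 hpi and 5 at 48 hpi, the only start of the 8 called lower in that mark, where 5.46% of all starts were, and it rests on 5 tags: another random draw gave a log2 change of 0.74.

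The gene is 1.9 kb long, and Eif4a1 ends 783 bp upstream of it, so the 3 kb at the start also covers the end of that gene. With 6 kb windows the change in H3K27Ac was 0.69 and was not called. Of the 7 windows of the locus that were higher, 6 lay upstream of the start, and 3 held no start of another gene. The window 12 kb downstream, which holds the start of Sox15, fell from 822 to 563, 438, 354 and 213 tags (log2 change of -1.95, -2.17 to -1.73). Summed over the locus, H3K27Ac went from 3725 to 3217 tags (log2 change of -0.21), and the sign turned, to 0.20, when scaled on bins enriched at all 5 times.

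Cd163 encodes the receptor for complexes of haemoglobin and haptoglobin. Its start lies on chromosome 6 at position 124254669 on the plus strand. H3K27Ac there was 7, 4, 4, 2 and 6 tags, H3K4Me1 8, 2, 4, 0 and 4 tags, and H3K27Me3 31, 20, 36, 39 and 35 tags. No window was enriched in H3K27Ac at 0 or 48 hpi, and 8 of 29 were enriched in H3K27Me3 at 0 hpi and 11 at 48 hpi, beside 13.1% and 14.7% of genome windows. In H3K27Ac 3 of 29 windows were called lower, against 4.94% of genome windows. The locus went from 153 to 102 tags in that mark (log2 change of -0.585, -0.96 to -0.21), at levels below the genome mean. In H3K4Me1 3 of 29 windows were called higher, against 6.49% of genome windows. At the far upstream edge of the locus, 30 kb before the start, H3K4Me1 went from 7 to 53 tags and H3K27Ac was 7, 11, 5, 42 and 11. The windows 45 and 48 kb downstream went from 10 to 26 and from 6 to 18 tags of H3K4Me1.

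Mrc1 encodes the macrophage mannose receptor. Its start lies on chromosome 2 at position 14151041 on the plus strand, and H3K27Ac there was 32, 28, 46, 70 and 38 tags. The log2 change to 48 hpi was 0.25 (-0.47 to 0.97), while 24 hpi was 2.19-fold above 0 hpi and 48 hpi was below 24 hpi by 0.88 on the log2 scale (-1.49 to -0.29). H3K4Me1 was enriched at all 5 times, with 55, 54, 89, 100 and 74 tags. H3K27Me3 was 10, 20, 4, 13 and 11 tags.

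Inside Mrc1 lay the window with the most H3K27Ac of all 319 in pre-B cells, and acetylation there fell. Over the 162.6 kb of the locus it was 5225, 2822, 2529, 2839 and 1748 tags, a log2 change of -1.58 (-1.66 to -1.50), and 1.59% of all loci fell further. It was the 1 locus of the 8 that was at least 2-fold lower in H3K27Ac, where 6.4% of all loci were. The window 15 kb downstream of the start, which held the most tags at 0 hpi among windows called lower, had 1350, 677, 612, 616 and 279 tags, a fall to 4.84-fold lower. The largest fall was 12 kb downstream, with 420, 186, 120, 98 and 27 tags, a log2 change of -3.96 (-4.58 to -3.40). H3K4Me1 in that window went from 98 to 33 tags. In H3K27Ac 21 of 55 windows were lower and 2 higher, and Mrc1 gave 21 of the 29 lower windows of all 8 loci. Across the genome 4.94% of windows were lower. Much of the fall lay between 0 and 3 hpi, within the pair of libraries that stood apart at the heavy chain locus. With 12 hpi as the base the change over the locus was -0.53 (-0.62 to -0.44), so the 2-fold call was lost. After 12 hpi, 14 of 55 windows were lower and 1 higher, and the windows 12 and 15 kb downstream changed by -2.15 (-2.81 to -1.54) and -1.13 (-1.34 to -0.93). No other annotated gene lies in these windows.

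Upstream of Mrc1, 1 of 10 windows was called higher in H3K27Ac and 4 lower. The lower ones, 27, 12, 9 and 6 kb upstream, went from 67 to 26, 23 to 8, 29 to 4 and 16 to 8 tags. In the window 18 kb upstream, the highest at 48 hpi among those called higher, H3K27Ac was 17, 23, 27, 63 and 54 tags and H3K4Me1 29 and 88 tags at 0 and 48 hpi. In the window 21 kb upstream, named after its values were seen, H3K27Ac was 167, 106, 181, 344 and 296 tags, which reached 2-fold over 0 hpi at 24 hpi but not at 48 hpi. Both windows lie in the neighbouring gene Fam23a. The window that holds the start of the microRNA gene Mir511, 33 kb into Mrc1 and also named after its values were seen, had 17, 11, 77, 105 and 22 tags of H3K27Ac and 12, 16, 60, 106 and 83 of H3K4Me1. There H3K27Ac was back near its 0 hpi level at 48 hpi and H3K4Me1 was not.

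Clec7a encodes dectin-1, which binds β-glucans of fungal walls. Its start lies on chromosome 6 at position 129422790 on the minus strand, and H3K27Ac there was 19, 48, 38, 66 and 110 tags. The log2 change was 2.53 (1.82 to 3.32), and from 12 to 48 hpi it was 1.53 (0.99 to 2.11). H3K4Me1 was 8, 43, 86, 91 and 93 tags, with 91.8% of the rise present at 12 hpi, while the H3K27Ac rise stood at 20.9% then. H3K27Me3 at the start was 35, 42, 62, 59 and 43 tags.

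The Clec7a locus carried H3K27Me3 throughout. The gene is 11.2 kb long, and many windows of the locus lie in its neighbours, Olr1 upstream and Clec1a downstream. Before induction 20 of 24 windows were enriched in H3K27Me3, where 13.1% of genome windows were, and 21 at 48 hpi, where 14.7% were. Over the 71.2 kb of the locus it went from 1027 to 1069, 1480, 1596 and 1582 tags, a log2 change of 0.62 (0.51 to 0.74), below 2-fold but above the change of 98.9% of all loci. Scaled on bins enriched at all 5 times it was 0.46. At the start and in the windows 36 and 39 kb downstream, the 3 enriched in H3K27Ac at 48 hpi, H3K27Me3 was 110 tags at 0 hpi and 121 at 48 hpi, and in the other 21 windows 933 and 1475. The window 39 kb downstream, inside the neighbouring gene Clec1a, had 119, 155, 96, 188 and 244 tags of H3K27Ac and a log2 change of 1.04 (0.71 to 1.36). The start of Clec7a was thus enriched in H3K27Ac from 3 hpi and at or above the enrichment minimum in H3K27Me3 at all 5 times. With 1 kb windows the H3K27Me3 enrichment was lost at 0 and 48 hpi. For the times between, only counts over all starts of the group are given below. Whether both marks sat on the same chromosomes or in different cells cannot be told apart in these libraries.

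Passing gains of H3K27Ac, at least 2-fold above both 0 and 48 hpi at 3, 12 or 24 hpi, were counted after the data were seen. They numbered 17 of 319 windows, a share near the 5.11% of genome windows. Scaled on background bins they were 28, against 3.97%. Clec7a had 4 of them, all upstream. In the window 6 kb upstream H3K27Ac was 6, 35, 6, 6 and 7 tags, and in the one 27 kb upstream, inside Olr1, 8, 38, 18, 21 and 11. H3K4Me1 in the latter went from 8 to 13, 41, 56 and 43 and stayed above its 0 hpi level. The windows 6 and 27 kb upstream kept the pattern under both other scalings, while 1 of the 4, 30 kb upstream, lost it under background bins. The 3 hpi library is among those that stood apart at the heavy chain locus, and its part in this was not tested.

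Emr1 encodes an adhesion G-protein-coupled receptor with epidermal growth factor-like repeats that serves as a surface marker of mouse macrophages. Its start lies on chromosome 17 at position 57498122 on the plus strand. H3K4Me1 was 21, 28, 45, 145 and 134 tags, a log2 change of 2.67 (2.00 to 3.41). H3K27Ac was 9, 13, 23, 53 and 33 tags (log2 change of 1.87, 0.78 to 3.12), and was enriched at 24 hpi only. H3K27Me3 was enriched at all 5 times, with 48, 51, 63, 70 and 63 tags, although with 1 kb windows none of the 8 starts was enriched in that mark at 0 or 48 hpi. After 12 hpi H3K27Ac changed by 0.52 (-0.29 to 1.36).

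The stronger signal lay upstream of Emr1. In the window 12 kb upstream H3K27Ac was 29, 67, 136, 263 and 168 tags, a log2 change of 2.53 (1.96 to 3.16), and H3K27Me3 went from 15 to 6. In the window 15 kb upstream H3K27Ac was 37, 112, 111, 195 and 89. Both peaked at 24 hpi, as the start did. The window 24 kb upstream did not gain: it was enriched in H3K27Ac at 0 hpi, with 120, 91, 93, 110 and 64 tags, and was not called lower. Of the 62 windows 9 were higher and 1 lower in H3K27Ac, against 9.28% and 4.94% of genome windows, and 6 of the 9 lay upstream. Between 12 and 48 hpi 1 window was higher and 1 lower in H3K27Ac, and the window 12 kb upstream changed by 0.30 (-0.03 to 0.64). Over the locus H3K27Ac went from 455 to 704 tags (0.63, 0.46 to 0.80), below 2-fold, but scaled on bins enriched at all 5 times the change was 1.04 (0.87 to 1.21) and reached it.

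H3K27Ac was lower at 48 than at 24 hpi at the starts of Cd68, Mrc1 and Emr1 and higher at those of Msr1, Cd36 and Clec7a. For Emr1 the log2 difference was -0.68 (-1.36 to -0.03), for Msr1 0.24 (0.04 to 0.44), for Cd36 1.34 (0.96 to 1.74) and for Clec7a 0.74 (0.28 to 1.20). The 24 hpi library had the fewest tags in background bins of the 5 H3K27Ac libraries, and the size of this step depended on the scaling. Scaled on background bins, Msr1 turned to -0.42 and Clec7a stood at 0.07, while the other 4 kept their signs.

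H3K27Me3 was compared with H3K27Ac window by window in the 6 loci with H3K27Ac-enriched windows at 48 hpi. H3K4Me1 was left out of this comparison. None of the windows enriched in H3K27Ac at 48 hpi, 6 in Msr1, 19 in Cd36, 5 in Emr1 and 3 in Clec7a, was at least 2-fold higher in H3K27Me3. In Cd68 it was 1 of 15 and in Mrc1 2 of 11. Of the windows not enriched in H3K27Ac, 24 of 35 were higher in Msr1, 2 of 37 in Cd36 and 9 of 57 in Emr1. In Clec7a it was 2 of 21, in Cd68 0 of 6 and in Mrc1 3 of 44. The genome share was 3.37%, so a count of 0 in a few windows lies near it. The windows called higher in H3K27Me3 numbered 44 of 319, against 3.37% of genome windows. Of these, 24 were in the Msr1 locus (15 when scaled on bins enriched at all 5 times) and 9 in that of Emr1. Lower were 22, near the 7.1% of genome windows, and 11 of them were in Mrc1 and 4 in Marco.

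Genes related to the 8 by family or use were read in the same way, 41 in all: 14 further scavenger receptors, 12 C-type lectins, 5 relatives of Cd68 and Emr1 and 10 macrophage markers. In H3K27Ac 16 of 41 were at least 2-fold higher at 48 hpi, against 6.6% of all starts, and 2 lower, against 9.67%, with a median log2 change of 0.48. With 1 kb windows 9 were higher. In H3K4Me1 13 were higher, against 4.17%. Counted from 12 hpi, 10 of 41 were higher in H3K27Ac, against 3.35%. By group, counted from 0 hpi, 7 of 12 C-type lectins were higher, 4 of 14 scavenger receptors, 4 of 10 macrophage markers and 1 of 5 relatives. Enriched in H3K27Ac were 8 of 41 at 0 hpi and 15 at 48 hpi, beside 46.4% and 47.3% of all starts. Some starts called higher, named after their values were seen, ended below the genome mean of 18.7 tags. They were Olr1 (10 tags), Clec1a (16), Clec10a (13), Mrc2 (14) and Axl (12). The intervals of Olr1, Clec1a and Clec10a included no change.

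Clec4d, Clec4e, Clec4n and Clec4a2, lectin genes that lie together on chromosome 6, were among the largest gains. Clec4d, whose product signals through an adaptor for immune receptors, had 2, 10, 72, 493 and 1011 tags of H3K27Ac (log2 change of 8.98, 7.13 to 12.0). Clec4e, the receptor for the mycobacterial cord factor, had 3, 16, 77, 462 and 748 (7.96, 6.41 to 10.2). Clec4n, which encodes dectin-2, went from 10 to 403, and Clec4a2 from 2 to 32 (4, 2.03 to 7.11), below the enrichment minimum of 34. At 12 hpi these 4 starts held 8 to 77 tags, so most of each gain lay after that time.

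Among the other scavenger receptors Stab1, which encodes stabilin-1, had 9, 6, 116, 305 and 353 tags of H3K27Ac (5.29, 4.35 to 6.43), and the lipoprotein receptor gene Lrp1 13, 43, 88, 167 and 119. Among the macrophage markers Lgals3, which encodes galectin-3, had 5, 17, 119, 239 and 271, and Siglec1, the sialoadhesin gene, 12, 11, 45, 189 and 181. The complement genes C1qa, C1qb and C1qc, also macrophage markers and named after their values were seen, held at most 7 tags of H3K27Ac at any time. The starts that fell in H3K27Ac, likewise named after their values were seen, were those of Cd97, a relative of Emr1, from 941 to 267 tags, and of Megf10, from 342 to 112.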

How the data were processed

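ChIP-seq libraries of H3K4Me1, H3K27Ac and H3K27Me3 from C10 cells at 0, 3, 12, 24 and 48 hpi were grouped by the mark and time in their labels, 1 library in each group. The authors aligned the reads to mm9 with Eland or Bowtie without mismatches and removed tags that were identical or not uniquely aligned. The deposited files hold other values than counts: each line gives where 1 tag of 36 bp aligned and leaves out its strand. Counts were made here from the middles of the tags on chromosomes 1 to 19 and X. The files kept different numbers of identical tags, so 1 per position was kept (tags of opposite strands at 1 position cannot be told from copies), and libraries were thinned at random to the smallest of their mark (H3K4Me1, 10.91 M tags, H3K27Ac, 15.22 M, and H3K27Me3, 15.34 M).

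Genes came from the GENCODE annotation of NCBIM37, which is mm9. The start of a gene was the group of starts within 500 bp that most protein-coding transcripts used. Changes compared 48 with 0 hpi. Counts of 1 library have exact Poisson 95% intervals and ratios exact conditional binomial ones. Both leave out every error but that of counting, and PCR copies at other positions may remain. Ratios with fewer than 3 tags in a library were called with 3 in its place. The genome-wide shares come from the same rule over 22342 starts or loci and 832530 windows. Stretches of the genome without a tag in any library were left out of the 832530. All 319 windows of the loci were kept, a few of them without tags.

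All 8 genes are given at every time. Related genes were named when they changed at least 4-fold in H3K27Ac with at least 20 tags, unless said otherwise. Windows were named when they held the most H3K27Ac at 48 hpi among those called higher or the largest fall. The Mrc1 window with the most tags at 0 hpi among those called lower, and every other single window given, were picked after their values were seen. The genes, lists and windows were chosen with earlier results of these data known. Alternatives were other scalings, no thinning, another draw, tags as deposited, 1 and 6 kb windows, the 5′-most start and a 4-fold minimum. Values over loci, H3K27Me3 windows of Msr1 and 48 against 12 hpi were added as alternatives after the data were seen. Python 3.11.15, numpy 2.4.6, pandas 2.3.3, scipy 1.17.1 and matplotlib 3.10.9 were used. RNA and factor binding were not analysed here.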

Additional observations from a re-analysis of the deposited data

How the results depend on the processing

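Of 457 values recomputed under the alternatives, 384 stayed within the interval of the value given or within 1.5 times of the count given, 72 moved further and 1 called value changed sign. Values that had not been called also changed sign, such as Cd68 in H3K4Me1 at the start (-0.49, and 0.41 under background bins). The calls on Msr1, Emr1 and Clec7a in H3K27Ac and H3K4Me1 held under every scaling, draw, window width and start tried. With a 4-fold minimum 3 genes were higher in H3K27Ac (Msr1, Cd36 and Clec7a), 10 related genes were, and 35 windows in H3K27Ac and 45 in H3K4Me1. From 12 to 48 hpi, chosen after seeing the data to leave out the 0 and 3 hpi libraries, the counts in H3K27Ac were 3 genes, 10 related genes and 44 windows. The Cd68 fall in H3K27Me3 changed sign (0.74) with another draw, and the count of genes lower in that mark was 0 with another draw, background bins, no thinning, 6 kb windows and a 4-fold minimum. Cd36 lost both calls at its 5′-most start, Cd68 lost its H3K27Ac call with 6 kb windows (0.69), and Mrc1 gained one in H3K4Me1 under background bins (1.33), where 116 windows were higher in that mark. Calls of a fall appeared for Marco in H3K4Me1 with 6 kb windows (-1.58), and with 1 kb windows for Cd68 in H3K4Me1 (-1.32) and Marco in H3K27Me3 (-1.12). The cause was not tested.

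With 1 or 6 kb windows 2 starts were enriched in H3K27Ac at 0 hpi. With 1 kb windows, 0, 1, 2, 1 and 0 starts were enriched in H3K27Me3 in order of time, and 9 related genes were higher in H3K27Ac. Background bins added 0.91 to each H3K4Me1 log2 change at 48 hpi, 0.27 to H3K27Ac and 0.20 to H3K27Me3. No paired analysis was possible because the labels give every group a single replicate, and none could be left out. Depth limits the starts of Marco and Cd163, where a change of a few tags could not be seen.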

Other observations

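Likeness was read for the 5 genes with a start enriched in H3K27Ac at 48 hpi, and not for Marco, Emr1 and Cd163. The gene starts most like those 5 over all 15 libraries were found by the Euclidean distance between log2(tags + 5) values. For Msr1 they were Gm17252 (distance 1.60), with 2, 11, 103, 386 and 666 tags of H3K27Ac, and C3ar1 (2.50), the receptor gene for the complement fragment C3a, with 9, 22, 60, 227 and 249. For Cd36 they were Mnda (1.93) and 4930485B16Rik (1.93). For Cd68 they were Capg (1.62), which encodes an actin-capping protein, and Dok2 (1.98). Capg had 160, 108, 539, 944 and 712 tags of H3K27Ac and Dok2 275, 74, 571, 638 and 470. Their low 3 hpi value is among the values that the distance used, so the choice favoured it. For Mrc1 they were Gm10253 (1.47) and Rhoj (1.49), and for Clec7a Selp (2.05), which encodes P-selectin, and Ccl4 (2.06), a chemokine gene. The distance describes these libraries and says nothing of shared control.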
